A study of Mus musculus with 6 samples.

Results

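The genes described here are 7 genes of MHC class II antigen presentation, namely Cd74, H2-Aa, H2-Ab1, H2-Eb1, H2-DMa, H2-DMb1 and Ciita. They were taken by name from a table of 22558 mouse genes, and all 7 were in it. The choice was made with earlier results of these data known. The study sequenced whole-eye total RNA of C57BL/6 mice at postnatal day 21. It compared 3 wild type libraries with 3 libraries of mice homozygous for a BC027072 null allele (BC027072 -/-). BC027072 is the mouse counterpart of human PCARE, a photoreceptor cilium gene of inherited retinal degeneration. The labels do not give the sex, the litter or the construction of the allele, and do not say whether each library came from a separate animal. The p-values therefore measure the spread between these libraries, which may be technical in part.

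Class II molecules are pairs of an alpha and a beta chain that display peptides from the endosomes of a cell to CD4 T cells. The invariant chain, encoded by Cd74, holds the new pair together and fills its groove on the way to the endosome, where proteases trim it down to a short remnant. H2-DM, a heterodimer of the products of H2-DMa and H2-DMb1, then exchanges the remnant for antigen peptide. Ciita is the transactivator that docks on the proteins bound at the X and Y boxes of class II promoters and sets how much of the set is transcribed. Dendritic cells and B cells make class II molecules constitutively, and macrophages and microglia make more of them in response to interferon gamma. In the normal retina few cells carry class II. C57BL/6 mice have the H2-b haplotype, in which a promoter deletion silences the alpha chain of the I-E molecule, so that H2-Eb1 is transcribed but has no partner.

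Of the members, 5 lie on chromosome 17 within 181 kb in the H2 complex (mm9, positions from the authors' files). H2-DMa spans 34272616 to 34275480, H2-DMb1 34290136 to 34297174, H2-Ab1 34400172 to 34406363, H2-Aa 34419696 to 34424716 and H2-Eb1 34442812 to 34453619. The last of these ends 37.6 Mb before BC027072, which is on the same chromosome (72092895 to 72102225). Cd74 is on chromosome 18 (60963503 to 60972306) and Ciita on chromosome 16 (10488372 to 10527657).

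The promoters of the chain genes carry the elements through which Ciita acts, and they are shown because 2 of the 3 printed here belong to genes that were higher in the knockout. RefSeq promoter sequences of build GRCm38.p6 were matched by symbol for 4 of the 7 members, H2-Aa, H2-Eb1, H2-DMa and H2-DMb1. Each sequence below holds the 200 bases before the start of transcription on the coding strand. Capitals mark the X box core (AGNAAC, or GGCAAC in H2-Aa) and the Y box core (ATTGG).

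H2-Aa (chr17:34287824-34288023, minus strand): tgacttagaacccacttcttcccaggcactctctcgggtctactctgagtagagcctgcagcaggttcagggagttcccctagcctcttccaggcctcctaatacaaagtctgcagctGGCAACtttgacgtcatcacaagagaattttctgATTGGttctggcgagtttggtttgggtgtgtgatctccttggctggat

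H2-Eb1 (chr17:34305667-34305866, plus strand): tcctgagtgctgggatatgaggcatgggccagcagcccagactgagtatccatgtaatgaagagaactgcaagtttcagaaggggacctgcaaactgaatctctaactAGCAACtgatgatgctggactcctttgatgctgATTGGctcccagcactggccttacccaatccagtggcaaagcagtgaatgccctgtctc

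H2-DMb1 (chr17:34152991-34153190, plus strand): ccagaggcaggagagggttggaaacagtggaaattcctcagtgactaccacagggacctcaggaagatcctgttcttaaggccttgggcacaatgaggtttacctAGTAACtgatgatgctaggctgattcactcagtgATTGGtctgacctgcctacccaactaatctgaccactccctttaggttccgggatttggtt

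In H2-Aa the X core began 82 bases before the start and the Y core 48 bases before it. The corresponding positions were 92 and 59 in H2-Eb1 and 95 and 61 in H2-DMb1. The gap between the cores was 28 bases in H2-Aa and H2-DMb1 and 27 bases in H2-Eb1. AGNAAC followed by ATTGG, searched on both strands with 15 to 45 bases between them, was found in 1.62% of 32851 promoters (250 before to 50 after the start). H2-Eb1 and H2-DMb1 held it. H2-Aa held it only with the looser core GNAAC, a search added after its promoter was read, which 4.93% of the promoters met. The motifs alone were common, at 48.1% of promoters for AGNAAC and 37.4% for ATTGG. TTCNNNGAA, the core of the interferon gamma activated site, was in 8.3% of promoters and in none of those of the 3 genes above.

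Of the 4 further class II chains with a promoter in the table, H2-Oa, H2-Ob and H2-Eb2 held the same pair of cores. The promoter of the fourth, H2-DMb2, held neither pair searched, and held ATTGG and TTCNNNGAA. Aligned by the X core, the modules of the 6 genes read as follows, again with both cores in capitals.

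H2-Aa: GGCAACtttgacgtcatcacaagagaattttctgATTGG

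H2-Eb1: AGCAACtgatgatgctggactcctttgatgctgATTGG

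H2-Eb2: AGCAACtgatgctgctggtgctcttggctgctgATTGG

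H2-DMb1: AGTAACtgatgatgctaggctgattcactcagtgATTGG

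H2-Oa: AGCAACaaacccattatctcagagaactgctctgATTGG

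H2-Ob: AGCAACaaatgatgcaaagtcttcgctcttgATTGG

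H2-Eb1 and H2-DMb1 shared a run of 13 bases across the X box (AACTGATGATGCT). Of the pair, H2-Eb1 was higher in the knockout and H2-DMb1 did not pass the test. The 2 promoters listed for H2-DMa held no such pair of cores. They start 27673 and 30359 bases before H2-DMb1 in GRCm38.p6, while the H2-DMa transcript of the files starts 17520 bases before it in mm9, so they are not the start of the transcript measured here.

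The knockout libraries held 3, 2 and 3 fragments of BC027072, against 5854, 3667 and 2251 in the wild type. The libraries held between 5695530 and 21815950 fragments assigned to genes. Xist and 4 Y-linked genes showed that the 3 wild type libraries and knockout replicate 2 were female and knockout replicates 1 and 3 male, so that no wild type library was male. The rod factor gene Nrl, the corneal keratin gene Krt12 and the pigment epithelium gene Rpe65 were all well detected in every library. Nrl fell to 446 ± 10.7 from 905 ± 23.5 CPM (SD, n = 3; log2 fold change −1.02 ± 0.06, edgeR adjusted p = 4.51e-08).

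Knockout eyes held about double the wild type RNA of the invariant chain and of the 3 classical chains, while both H2-DM genes and Ciita did not pass the test. In edgeR's quasi-likelihood test with Benjamini-Hochberg adjustment, 4 of the 7 members were higher in the knockout at an adjusted p under 0.05 and 0 were lower. Over all 14919 genes tested, 2.89% were higher and 3.35% lower. The members were not chosen blind to these data, so the shares of all genes stand beside their counts as a description only. At an unadjusted p under 0.05, 5 members were higher and 0 lower, against 9.55% and 9.45% of all genes. DESeq2 also called 4 higher and 0 lower, against 2.19% and 2.88% of all genes. None of the 7 passed when library sex was a covariate, in the 4 female libraries alone or in limma on the deposited FPKM. In both sex fits the 4 genes had log2 fold changes of 0.67 to 0.87. H2-DMb1 had 0.73 in both, against 0.23 in all 6 libraries. The median log2 fold change was 0.96 over the 7 members and 0.00233 over all genes tested. All 7 passed the filter on low counts.

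Cd74, the invariant chain, stood at 40.4, 29.6 and 33.03 CPM (fragments scaled to the size of the library) in wild type replicates 1 to 3 and at 98.9, 55.5 and 52.4 CPM in knockout replicates 1 to 3. All 3 knockout libraries lay above all 3 wild type libraries, and replicate 1 lay far above the other 2. The means were 34.4 ± 5.51 and 68.9 ± 26.0 CPM (SD, n = 3), a 1.99-fold difference (log2 fold change 0.99 ± 0.18 SE, edgeR adjusted p = 0.00301).

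H2-Aa, the alpha chain of the I-A molecule, had 14.8, 12.7 and 14.0 CPM in the wild type libraries and 42.9, 22.1 and 22.0 CPM in the knockout libraries. The wild type values were tight and the groups did not overlap. The mean rose from 13.8 ± 1.06 to 29.0 ± 12.03 CPM (SD, n = 3; log2 fold change 1.07 ± 0.20, edgeR adjusted p = 0.00299).

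Its partner H2-Ab1, the I-A beta chain, had 13.1, 10.2 and 12.03 CPM in wild type and 30.7, 19.1 and 19.0 CPM in knockout. Again the lowest knockout value was above the highest wild type value. The mean rose from 11.8 ± 1.48 to 22.9 ± 6.71 CPM (log2 fold change 0.96 ± 0.17, edgeR adjusted p = 0.00167).

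H2-Eb1, the I-E beta chain without a partner in this haplotype, had 13.0, 9.45 and 13.4 CPM in wild type and 32.3, 21.7 and 18.9 CPM in knockout. It separated the groups as the I-A genes did, with knockout replicate 1 highest. The mean rose from 11.9 ± 2.16 to 24.3 ± 7.08 CPM (log2 fold change 1.03 ± 0.18, edgeR adjusted p = 0.00157). The share of all tested genes whose 3 knockout values lay above the 3 wild type values was 11.6%, against these 4 of the 7 members.

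H2-DMa, the alpha chain of the peptide exchange factor, had 2.70, 2.54 and 2.95 CPM in wild type and 3.51, 2.58 and 2.83 CPM in knockout. The groups overlapped, and 15 to 58 fragments lay behind each value. Its log2 fold change was 0.15 ± 0.21 (edgeR adjusted p = 0.777).

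H2-DMb1, the H2-DM beta chain, had 4.51, 4.72 and 3.93 CPM in wild type and 5.502, 7.41 and 3.59 CPM in knockout. Here knockout replicate 2 was highest and replicate 3 lowest of all 6 libraries. The log2 fold change was 0.23 ± 0.22 (edgeR adjusted p = 0.643). The neighbouring gene H2-DMb2 is a close copy. It was given 0, 1 and 1 fragments in wild type and 2, 3 and 3 in knockout. H2-DMb1 was given 97, 67 and 32 in wild type and 47, 43 and 38 in knockout. The counting may have split reads between them, which was not tested.

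Ciita, the transactivator of the whole set, was the scarcest member, with 12 to 31 fragments per library. It had 1.30, 1.13 and 1.72 CPM in wild type and 3.63, 2.07 and 1.23 CPM in knockout. Knockout replicates 1 and 2 lay above the wild type range, and replicate 3 inside it. The means were 1.38 ± 0.304 and 2.31 ± 1.22 CPM, with a log2 fold change of 0.76 ± 0.35 and an unadjusted p of 0.0464 (edgeR adjusted p = 0.253).

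**Figure D1:**
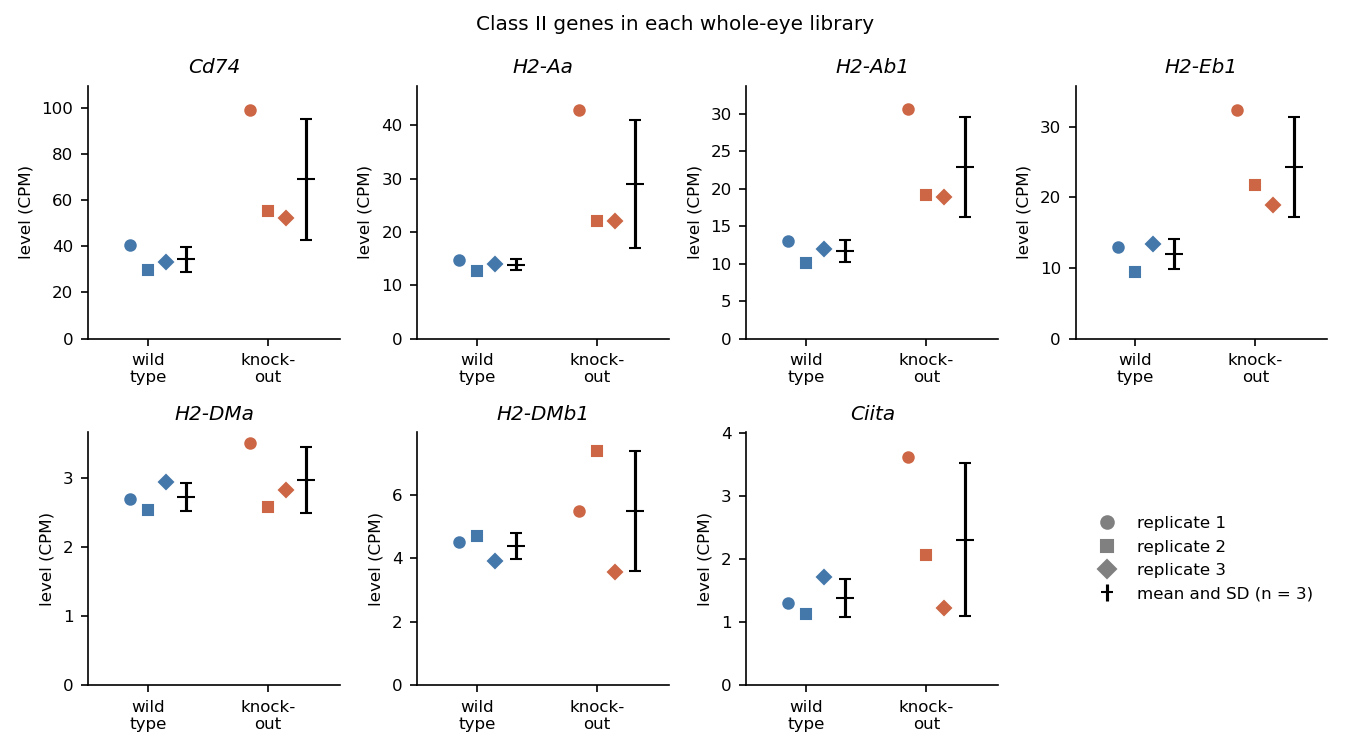
Level of each class II gene in each whole-eye library, in CPM (y axis from 0) for 3 wild type and 3 knockout libraries, with the mean and SD of each group. Cd74, H2-Aa, H2-Ab1 and H2-Eb1 show all 3 knockout libraries above the wild type, with knockout replicate 1 at 98.9 CPM for Cd74; the other 3 genes overlap.

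The authors' deposited table, made from the same libraries, called these 4 members higher too. It gave mean FPKM of 37.0 and 71.5 for Cd74, 14.6 and 30.6 for H2-Aa, 15.4 and 29.2 for H2-Ab1 and 7.35 and 14.5 for H2-Eb1, in wild type and knockout in that order, each with q = 0.00162. In the authors' deposited table H2-DMa (q = 0.953) and H2-DMb1 (q = 0.246) did not pass, and Ciita was not tested. That table called 3.18% of its 14403 tested genes higher.

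The deposited FPKM ordered the libraries differently from CPM in places. By FPKM, Cd74 in wild type replicates 1 to 3 was 39.9, 42.9 and 28.3, so that replicate 2 was the highest wild type library, whereas by CPM it was the lowest. In limma on log2(FPKM + 1), 0 of the 7 members passed and 4 were higher at an unadjusted p under 0.05, against 2.73% of all genes. The fold changes on that scale were 0.90 for Cd74 (adjusted p = 0.482), 0.99 for H2-Aa (0.138), 0.87 for H2-Ab1 (0.398) and 0.87 for H2-Eb1 (0.241). That test called only 0.0804% of all genes higher.

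Per kilobase of transcript, Cd74 was the most abundant member, at 27.0 ± 4.27 CPM per kb in wild type. H2-Aa followed at 12.9 ± 0.988, H2-Ab1 at 9.85 ± 1.24 and H2-Eb1 at 7.15 ± 1.30 CPM per kb, and the libraries of neighbouring genes in this order did not overlap. H2-DMa (3.49 ± 0.264 CPM per kb) and H2-DMb1 (3.42 ± 0.320) could not be ordered, and Ciita was far lower at 0.268 ± 0.0590. In knockout the order of the 4 highest was the same, with 54.5 ± 20.3 CPM per kb for Cd74, 27.1 ± 11.3 for H2-Aa, 19.2 ± 5.63 for H2-Ab1 and 14.6 ± 4.24 for H2-Eb1. There the values of H2-Aa overlapped those of H2-Ab1, and those of H2-Ab1 overlapped those of H2-Eb1. By the deposited FPKM, the wild type mean of H2-Ab1 (15.4 ± 3.40) was above that of H2-Aa (14.6 ± 0.397), the reverse of the order by CPM per kb.

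Ratios within a library ask whether the members moved in proportion, and do not depend on scaling between libraries. Each was compared by a 2-sided exact permutation test, in which 3 against 3 libraries cannot give a p under 0.1, and 7 ratios were tested. The Cd74 to H2-Aa ratio was 2.73, 2.33 and 2.36 in wild type and 2.31, 2.52 and 2.38 in knockout. The groups overlapped, and the mean log2 ratio differed by −0.04 (exact p = 0.7, adjusted p = 0.9). H2-Ab1 to H2-Aa (−0.06, exact p = 0.7, adjusted p = 0.9) and H2-Eb1 to H2-Aa (0.01, exact p = 0.9, adjusted p = 0.9) overlapped in the same way.

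The H2-DMa to H2-Aa ratio did not overlap. It was 0.182, 0.2 and 0.211 in wild type and 0.0820, 0.117 and 0.129 in knockout, a mean log2 difference of −0.88 at the smallest p the design allows (exact p = 0.1, adjusted p = 0.35). H2-DMb1 to H2-DMa overlapped widely (0.15, exact p = 0.9, adjusted p = 0.9).

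Cd74 was also set against a general gene of the macrophage lineage, Csf1r, the receptor for colony stimulating factor, and against Ctss. Cd74 to Csf1r was 0.641, 0.540 and 0.587 in wild type and 1.27, 0.763 and 0.772 in knockout. The groups did not overlap, with a mean log2 difference of 0.62 (exact p = 0.1, adjusted p = 0.35). Without knockout replicate 1 that difference was 0.38. Cd74 to Ctss was 1.59, 1.51 and 1.42 in wild type and 1.90, 1.13 and 1.11 in knockout, with replicate 1 above and the other 2 below the wild type (−0.17, exact p = 0.5, adjusted p = 0.9).

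**Figure D2:**
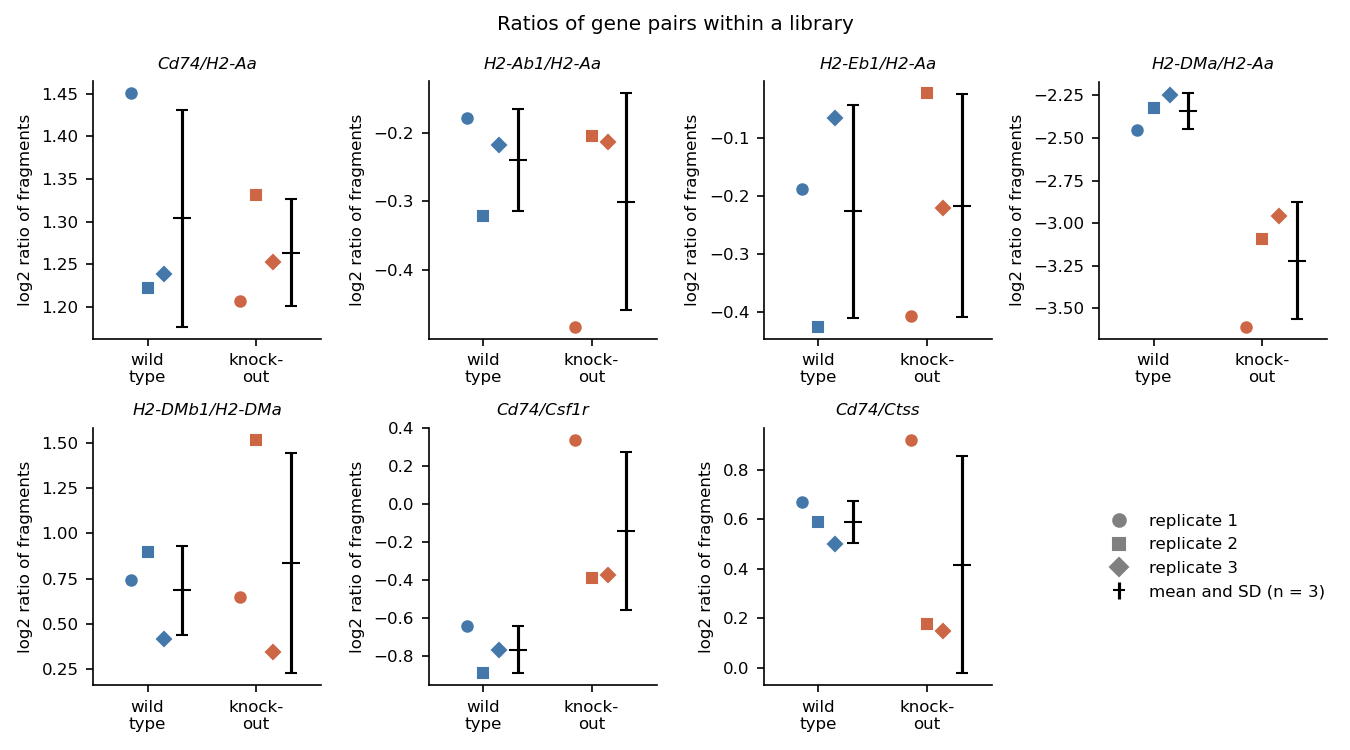
Log2 ratio of the fragments of 2 genes within each library (y axis, a different range in each panel), with the mean and SD of each group (n = 3). H2-DMa to H2-Aa is lower and Cd74 to Csf1r higher in all 3 knockout libraries; the ratios among Cd74, H2-Aa, H2-Ab1 and H2-Eb1 overlap between genotypes.

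Cd74 is annotated with a longer isoform of 1415 bases and a shorter one of 1223 bases. The longer invariant chain, p41, holds an extra domain that inhibits cathepsins. The longer isoform took 30.0%, 26.9% and 28.3% of Cd74 fragments in wild type and 26.8%, 21.4% and 22.3% in knockout. The highest knockout share was just under the lowest wild type share. The mean was 28.4 ± 1.57% in wild type and 23.5 ± 2.84% in knockout (exact permutation test, 2-sided, p = 0.1, the smallest possible). These fragments were divided between overlapping isoforms by the authors' software, so the shares are estimates.

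Tested isoform by isoform in edgeR, 0 of the 8 member isoforms passed and 4 were higher at an unadjusted p under 0.05, against 5.87% of all isoforms. DESeq2 called 4 higher, against 2.06% of all isoforms. The longer Cd74 isoform had a log2 fold change of 0.76 ± 0.37 (edgeR adjusted p = 0.488) and the shorter 1.08 ± 0.25 (0.149). H2-Aa, H2-Ab1 and H2-Eb1 have a single isoform each, with the same fragments as in the gene table. Their adjusted p-values over isoforms were 0.212, 0.156 and 0.165, in a fit that called 0.464% of 18300 isoforms higher.

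Every one of the 6 fits that left out a library kept Cd74, H2-Aa, H2-Ab1 and H2-Eb1 past the threshold. Leaving out knockout replicate 1 lowered the fold change most. Without it the log2 fold change was 0.63 for Cd74, 0.66 for H2-Aa, 0.68 for H2-Ab1 and 0.75 for H2-Eb1, with adjusted p-values up to 0.0296 over all 6 fits, which called 1.81% to 2.84% of all genes higher. Ciita went from 0.76 to 0.21 without that library (edgeR adjusted p = 0.828) and to 1.15 without knockout replicate 3 (0.0592). H2-DMb1 went from 0.23 to 0.01 without knockout replicate 2 (edgeR adjusted p = 0.994).

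The sex of the libraries overlapped with genotype, and with sex as a covariate 0 of the 7 members passed, while 5 were higher at an unadjusted p under 0.05, against 5.04% of all genes. In that fit knockout replicate 2 alone compares the genotypes within a sex, and 0.61% of all genes were higher. The log2 fold change was then 0.68 for Cd74 (edgeR adjusted p = 0.369), 0.67 for H2-Aa (0.448), 0.69 for H2-Ab1 (0.318) and 0.87 for H2-Eb1 (0.217). In the 4 female libraries alone 0 members passed, where 0.619% of all genes were higher, and 5 were higher at an unadjusted p under 0.05, against 5.14% of all genes. The log2 fold change there was 0.67 for Cd74 (edgeR adjusted p = 0.0644), 0.67 for H2-Aa (0.0760), 0.69 for H2-Ab1 (0.120) and 0.87 for H2-Eb1 (0.0671). In each of these 4 genes the female knockout library lay above all 3 female wild type libraries and between the 2 male knockout libraries. Besides these 4, the member higher at an unadjusted p in both fits was H2-DMb1, and not Ciita. H2-DMb1 had a log2 fold change of 0.73 in both, and its female knockout library was the highest of all 6.

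**Figure D3:**
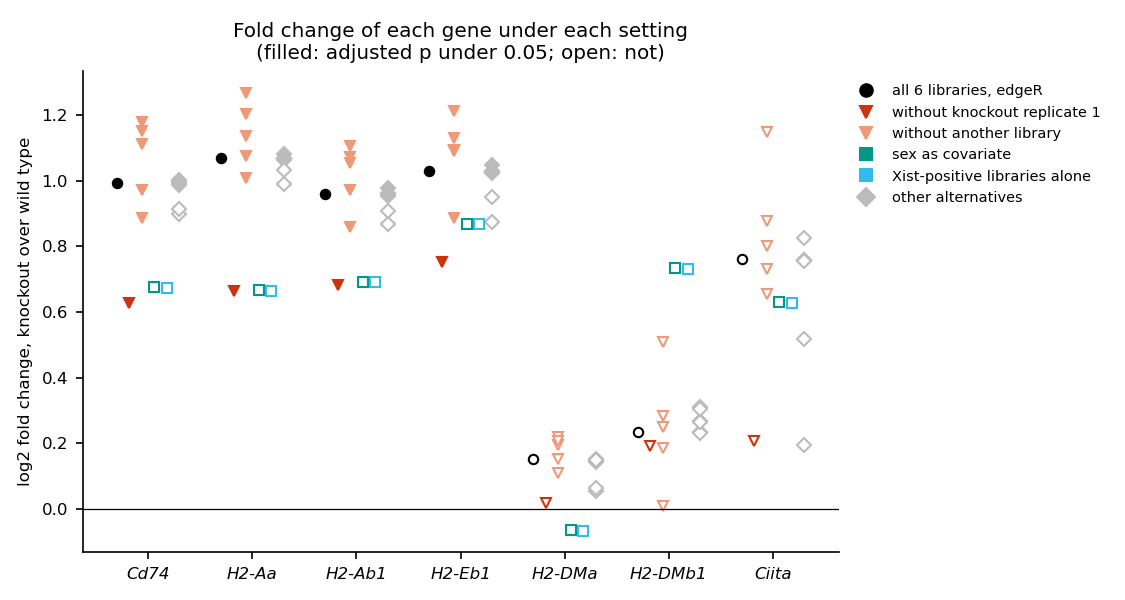
Log2 fold change of each class II gene (y axis, knockout over wild type) in all 6 libraries and under each alternative, with filled symbols for an adjusted p under 0.05. Cd74, H2-Aa, H2-Ab1 and H2-Eb1 stay above 0.6 throughout and are open where sex is a covariate, in the 4 female (Xist-positive) libraries and in limma on FPKM; H2-DMa, H2-DMb1 and Ciita are open throughout.

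The remaining class II chains were close to absent. H2-Ea-ps, the silent I-E alpha chain gene, and H2-Eb2 had 0 fragments in all 6 libraries, which allows at most 0.14 to 0.517 CPM per library (3 fragments, counting error only). H2-Oa and H2-Ob, the chains of H2-DO that holds back H2-DM in B cells, had 0 to 4 and 1 to 6 fragments per library. H2-DMb2 had 0, 1 and 1 fragments in wild type and 2, 3 and 3 in knockout. None of these 5 genes reached the filter, so they were not tested.

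The DNA-binding proteins with which Ciita works did not pass the test. Of the 7 genes of the RFX complex, the NF-Y complex and Creb1, 0 were higher and 0 lower in edgeR, in DESeq2 and at an unadjusted p under 0.05. The edgeR shares of all genes were 2.89% higher and 3.35% lower, and 9.55% and 9.45% at an unadjusted p. The median log2 fold change of the 7 was 0.01. Rfx5, the RFX subunit that binds the X box, had 23.8 ± 1.502 CPM in wild type eyes and 22.0 ± 0.949 CPM in knockout eyes (log2 fold change −0.12 ± 0.09, edgeR adjusted p = 0.552). Nfya, which binds the Y box with its partners, had −0.12, Nfyc −0.09 and Rfxank 0.07. The summed level of the list was 253 to 268 CPM in wild type and 245 to 265 CPM in knockout.

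Of the 8 tested genes that process antigen in endosomes, 1 was higher and 0 lower, against 2.89% and 3.35% of all genes. Their median log2 fold change was 0.08. That 1 gene was Ctss, cathepsin S, the protease that makes the last cuts in the invariant chain in dendritic cells and B cells. It had 25.4, 19.7 and 23.3 CPM in wild type and 52.2, 49.1 and 47.3 CPM in knockout. The 3 knockout libraries were close to each other and about double the wild type, without the high value in replicate 1 that Cd74 showed. The log2 fold change was 1.11 ± 0.09 (edgeR adjusted p = 1.62e-06), and with sex as a covariate it was 1.10 (0.00158).

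The other 7 endosomal genes did not pass. Lgmn, a protease that can start invariant chain cleavage, had a log2 fold change of −0.14 (edgeR adjusted p = 0.182), and Ctsh, cathepsin H, had 0.15 (0.195). Cst3, the secreted cathepsin inhibitor cystatin C, had 0.10 (edgeR adjusted p = 0.489).

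Irf1, a factor induced by interferon gamma that acts on a Ciita promoter, rose from 38.7 ± 0.825 to 48.6 ± 4.93 CPM (0.33 ± 0.08, edgeR adjusted p = 0.0183). It did not pass without knockout replicate 1 (edgeR adjusted p = 0.108), without wild type replicate 2 (0.0769) or when sex was a covariate (0.548). The receptor chains of interferon gamma, Ifngr1 (−0.10, edgeR adjusted p = 0.529) and Ifngr2 (0.14, 0.332), did not pass. Ifng itself had 1 fragment, in knockout replicate 2, and 0 in the other 5 libraries.

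Surface Cd74 takes part in a receptor for the cytokine Mif. Of the 5 genes of its partners and ligands there, 1 was higher and 0 lower (median log2 fold change 0.26). At an unadjusted p under 0.05 in edgeR, 2 were higher and 1 lower. The shares of all genes were 2.89% higher and 3.35% lower, and 9.55% and 9.45% at an unadjusted p. Cd44, the co-receptor that carries the signal from Cd74, rose from 79.3 ± 9.06 to 108 ± 2.10 CPM (0.45 ± 0.08, edgeR adjusted p = 0.00132). With sex as a covariate it had 0.48 (edgeR adjusted p = 0.0675). Cd44 has many sources in the eye besides immune cells. The ligands Mif (−0.16, edgeR adjusted p = 0.231) and Ddt (−0.11, 0.519) and the receptor Cxcr4 (0.46, 0.216) did not pass.

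Of 5 tested genes of co-stimulation and adhesion, 0 passed in edgeR or DESeq2 and 3 were higher at an unadjusted p under 0.05 in edgeR, against 9.55% of all genes. The median log2 fold change was 0.37. Icam1, an adhesion partner of the T cell, had 0.40 ± 0.12 (edgeR adjusted p = 0.0720), Cd274, the inhibitory ligand PD-L1, 0.37 (0.0969) and Cd83, which keeps class II at the surface, 0.44 (0.156). Cd40, the receptor for T cell help, had −0.36 (edgeR adjusted p = 0.607).

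In whole-eye RNA, more class II RNA per cell and more cells that carry it cannot be told apart. The markers of cell types that can carry class II are therefore given beside the members, and their part in the results was not tested. Of 17 microglia and macrophage markers, 8 were higher and 0 lower in edgeR, against 2.89% and 3.35% of all genes. At an unadjusted p under 0.05, 13 were higher and 1 lower, against 9.55% and 9.45% of all genes. The median log2 fold change of the 17 was 0.44. Their summed level was 342 to 382 CPM in wild type and 444 to 485 CPM in knockout, while that of the 7 members was 70.3 to 89.7 and 119.9 to 217 CPM. Of the 17, 10 had all 3 knockout values above all 3 wild type values, against 11.6% of all tested genes. Lyve1 had all 3 knockout values below the wild type, as did 11.7% of all tested genes.

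Mpeg1, a pore-forming protein of macrophages, had a log2 fold change of 0.77 ± 0.11 (edgeR adjusted p = 0.000439). Cx3cr1, the fractalkine receptor, had 0.64 (edgeR adjusted p = 0.00156), and the complement genes C1qb and C1qc 0.56 (0.00154) and 0.55 (0.00219). Tmem119, a marker of resident microglia, was level at 18.4 ± 1.19 and 18.3 ± 1.49 CPM (−0.00, edgeR adjusted p = 0.999). Cd163 had 0.07 (edgeR adjusted p = 0.869). Lyve1 went the other way, from 18.5 ± 1.30 CPM in wild type to 15.3 ± 0.458 CPM in knockout (−0.27, edgeR adjusted p = 0.150). Of the 17 markers, 15 had a positive log2 fold change. With sex as a covariate 1 of the 17 markers, Mpeg1, was higher, against 0.61% of all genes. At an unadjusted p under 0.05 in that fit 8 were higher, against 5.04% of all genes, and 0 lower.

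Dendritic cell markers were sparse. Of the 11 in the table, 6 were tested, of which 1 was higher and 0 lower, against 2.89% and 3.35% of all genes. The median log2 fold change of the 6 was −0.01. The summed level of the 11 was 18.1 to 19.9 CPM in wild type and 21.6 to 23.9 CPM in knockout. Irf8, a factor of dendritic cells that microglia also use, had 0.77 ± 0.20 (edgeR adjusted p = 0.0266). It did not pass in DESeq2 (adjusted p = 0.0631) or when sex was a covariate (edgeR adjusted p = 0.644). Of the fits that left out a library, it did not pass without knockout replicate 1 (edgeR adjusted p = 0.170), wild type replicate 1 or wild type replicate 2. The integrin gene Itgax had 0.30 (edgeR adjusted p = 0.722), Zbtb46 −0.07 (0.886) and Irf4 −0.07 (0.916). The other 5 markers were too low to test. Xcr1, a receptor of cross-presenting dendritic cells, had 9, 9 and 4 fragments in wild type and 11, 11 and 9 in knockout, a mean of 0.515 ± 0.110 and 1.34 ± 0.525 CPM (SD, n = 3) without overlap. Cd209a had 13, 7 and 3 fragments in wild type and 7, 6 and 14 in knockout, a mean of 0.489 ± 0.118 and 1.06 ± 0.252 CPM, also without overlap. Of all tested genes, 11.6% had every knockout value above the wild type in this way. Clec9a (0.592 ± 0.172 and 0.572 ± 0.254 CPM) and Batf3 (0.427 ± 0.185 and 0.232 ± 0.201 CPM) overlapped, and Ccr7 had 3, 1 and 0 fragments in wild type and 0 in each knockout library.

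B cell markers were near 0. None of the 7 reached the filter, and Pax5, the factor that defines the lineage, had 2 fragments in wild type replicate 2 and 0 in the other libraries. Their summed level was 1.47 to 2.32 CPM in wild type and 1.72 to 2.69 CPM in knockout. T cell markers were as low, at 2.19 to 3.19 and 1.55 to 3.51 CPM, and Cd3d and Cd3e had 0 to 2 fragments per library.

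Markers of monocytes and neutrophils summed to 21.7 to 24.3 CPM in wild type and 28.5 to 34.7 CPM in knockout. Of the 3 tested, 0 passed in edgeR or DESeq2 and 3 were higher at an unadjusted p under 0.05 in edgeR, against 9.55% of all genes. Ccr2, the chemokine receptor of inflammatory monocytes, had a log2 fold change of 0.55 (edgeR adjusted p = 0.0598), Csf3r 0.81 (0.103) and Plac8 0.29 (0.172).

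**Figure D4:**
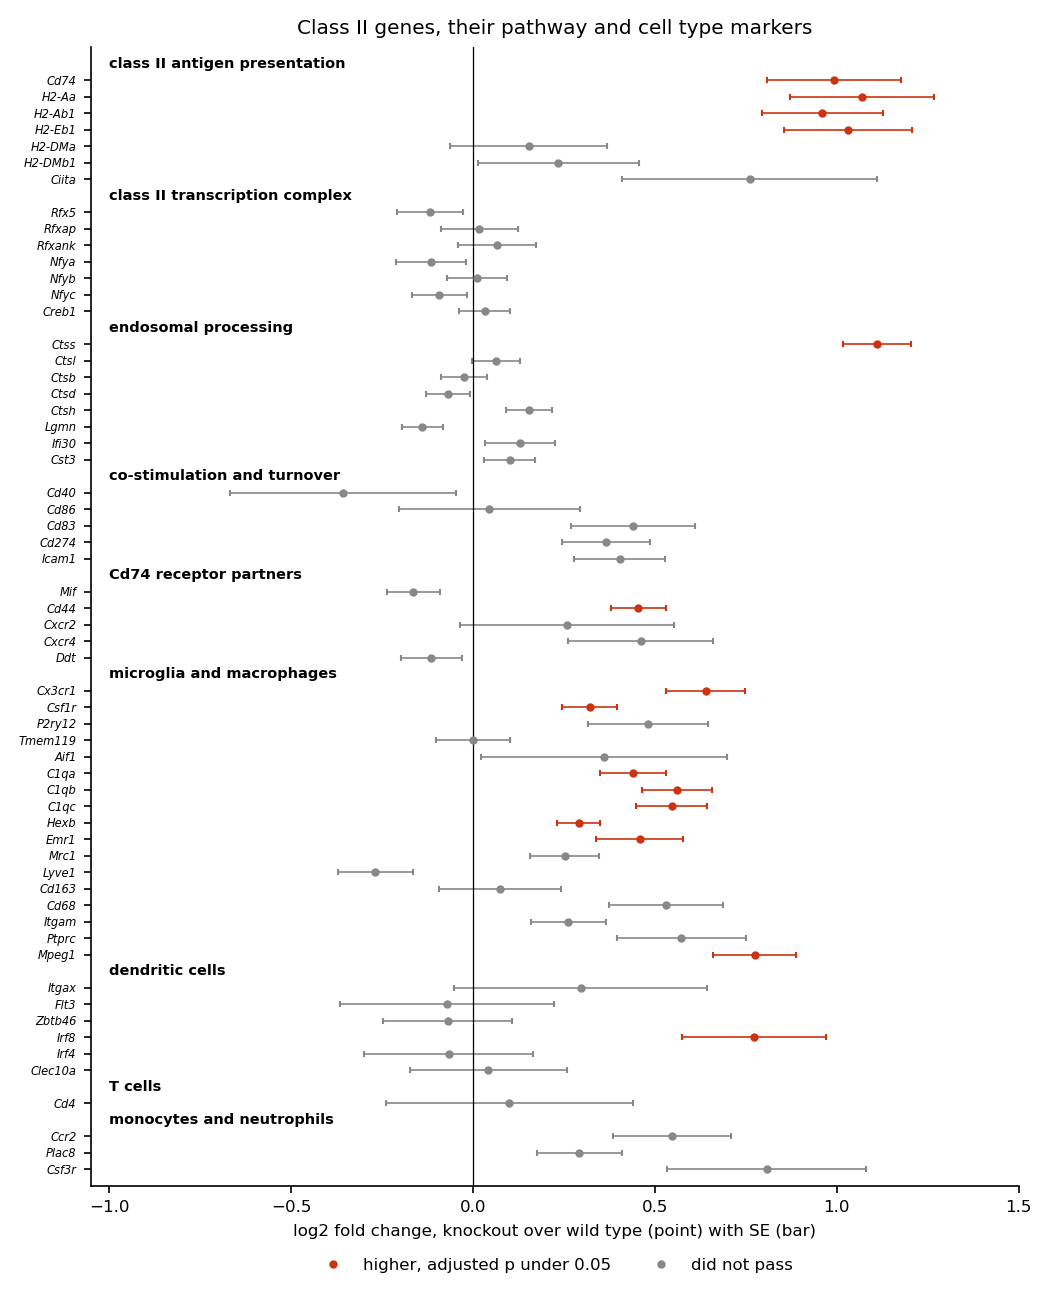
Log2 fold change of each tested gene (x axis, knockout over wild type, point) with its SE (bar) in edgeR, by list, with colour where the adjusted p was under 0.05. The 4 class II genes that passed and Ctss lie near 1, the 8 microglia and macrophage markers that passed between 0.29 and 0.77, and the class II transcription complex near 0.

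The genes whose profile over the 6 libraries was most like the mean of the members were found by the root-mean-square (RMS) difference of log2 CPM, centred on the wild type mean, among 14857 other genes with a mean of at least 1 CPM. The mean member profile was 0.08, −0.16 and 0.08 in wild type and 1.16, 0.62 and 0.33 in knockout. Usp18, a protease that removes the ubiquitin-like protein ISG15, was nearest with an RMS of 0.0777, and Tap1, a subunit of the transporter that loads class I molecules, was next at 0.0783. The median over the genes compared was 0.571. Gm16516 (0.106), Plcb2 (0.121), the mucin gene Muc4 (0.126) and H2-Gs10 (0.134) followed.

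These genes were chosen by their profile over the same libraries, so their levels are a description and were not tested. The mean level of Usp18 was 3.76 ± 0.299 in wild type eyes and 6.61 ± 1.76 CPM in knockout eyes (SD, n = 3), and that of Tap1 9.91 ± 1.27 and 15.7 ± 4.54 CPM. Muc4 had 100.8 ± 13.1 and 159 ± 42.8 CPM and H2-Gs10 19.3 ± 1.34 and 30.4 ± 6.07 CPM. In all 4 the highest library was knockout replicate 1.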

How the data were processed

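Whole-eye RNA of 3 wild type and 3 BC027072 knockout libraries was analysed from tables for 22558 genes and 28702 isoforms. The submitters' processing notes name mm9 and, as tools, Cuffdiff 2.2.1, Cufflinks 2.2.1 and TopHat2 2.0.12. Strand, read length and annotation are not given in the sources used here. As deposited, the tables give estimated counts of fragments in each library, unscaled by the authors, of which 98.5% of the gene values were whole within 1e-06. These were rounded. The authors also deposited FPKM scaled between libraries, transcript lengths, and a comparison with a q-value per gene. Libraries numbered from 0 in the files were read in order as replicates 1 to 3, and a number only names a library.

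The design called for edgeR if the files held fragment counts, and they did. The 7 genes and 12 isoforms that could not be estimated were left out. Of the 18586 genes with a fragment, 14919 passed filterByExpr (minimum count 10, minimum total 15). Knockout was compared with wild type in edgeR 4.0.16 (R 4.3.3) with TMM scaling and the quasi-likelihood F test, adjusted by Benjamini-Hochberg over all genes. Isoforms were fitted in the same way. SE is the size of the log2 fold change over the square root of F. Levels are CPM, and CPM per kb divides each isoform's CPM by its length. Alternatives were RLE scaling, DESeq2 1.42.0, no filter, limma 3.58.1 on log2(FPKM + 1) and log2(FPKM + 0.1), a replicate block, library sex as a covariate, the Xist-positive libraries alone, and each library left out.

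The members and gene lists were chosen with earlier results of these data known. The text names all members, BC027072, Xist and Y-linked genes, up to 4 genes of smallest p per list, and the 6 genes of most like profile. Other genes that are named were chosen after their values were seen. H2-Ea, Sppl2a, March1, March8, Adgre1 under its newer symbol, and Ly6g were not analysed here. Paralogs in the H2 complex may share reads. Some results of the lists, among them the counts of the interferon gamma list, are not reported here.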

Additional observations from a re-analysis of the deposited data

How the results depend on the processing

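Over the 14 alternatives, the 7 members gave 98 log2 fold changes, of which 80 kept direction and side of the threshold, 16 kept direction but no longer passed and 2 reversed. Over all 44 tested genes that were named by rule, of 616 such values 527 were unchanged in this sense, 72 no longer passed, 5 newly passed and 12 reversed. Of the members, 4 were higher in edgeR with TMM or RLE scaling, with no filter, in DESeq2, with a replicate block, and without any 1 library (4 to 4). None was higher in limma on log2(FPKM + 1) or log2(FPKM + 0.1), with sex as a covariate or in the Xist-positive libraries alone (0 in each, and 4, 4, 5 and 5 higher at an unadjusted p under 0.05, against 2.73%, 2.74%, 5.04% and 5.14% of all genes). Genes higher in the knockout numbered 431, and 12, 12, 91 and 96 in those 4 alternatives, with 271 to 425 when a library was left out. Genes lower numbered 500, and 4, 4, 144 and 149, with 315 to 460 when a library was left out. Related genes higher numbered 4, and 0, 0, 2 and 2. In DESeq2, 4 member isoforms were higher against 0 in edgeR. The cause of these differences was not tested. For sex as a covariate and the Xist-positive libraries, 1 knockout library is compared within a sex, and it is assumed to vary like the others.

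H2-DMa was −0.063 with sex as a covariate and −0.066 in the Xist-positive libraries, and Cst3 −0.0095 and −0.0116. Cd4, 0.10 in all libraries, was −0.32 and −0.33 in these, −0.023 with a replicate block, and −0.089 to 0.29 when a library was left out. Zbtb46 ran from −0.20 to 0.044 and Irf4 from −0.17 to 0.046 when a library was left out. The log2 difference of Cd74 to H2-Aa ran from −0.081 to 0.033 when a library was left out, H2-Ab1 to H2-Aa from −0.11 to 0.030, H2-Eb1 to H2-Aa from −0.090 to 0.10 (−0.076 by FPKM), and H2-DMb1 to H2-DMa from −0.19 to 0.40.

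The replicate numbers only name libraries. Deviations of same-numbered libraries correlated at 0.132, 0.0657 and −0.0489 across genes. With a replicate block 558 genes were higher and 611 lower, 4 members among the higher. H2-DMa, H2-DMb1 and Ciita had 12 to 97 fragments per library.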
